A study of Mus musculus with 6 samples.

Results

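MACF1 and DST are the spectraplakin genes of the human genome, and their transcripts were followed here isoform by isoform when Rbfox1 was induced. The members were the deposited rows whose gene symbol is MACF1 (ENSG00000127603.25) or DST (ENSG00000151914.20), which gave 34 isoforms of MACF1 and 40 of DST, 74 of 208621 isoforms and 2 of 58870 genes. Both genes were picked with values of the same comparison already known, so their differences between Dox and No Dox are described with replicate error and no test. RNA-seq was performed on 77-5 cells, a single clone of T-REx-293 that stably carries a mouse Ntrk2 minigene, and T-REx-293 is a derivative of the human embryonic kidney line HEK293 that holds the tetracycline repressor. The control group was untreated (No Dox, n = 3). The other group received doxycycline for 48 h (Dox, n = 3), at 0.5 mg/ml by the labels although figure legends of the study write micrograms, which switched on Rbfox1, a splicing regulator that binds UGCAUG. All samples carried the minigene and the inducible Rbfox1, and the effect of doxycycline cannot be told apart from that of Rbfox1. The organism label is mouse but the transcripts are human, and no label says that replicates came from separate cultures, so the spread between them may be technical.

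Spectraplakins are giant linker proteins that join the networks of the cytoskeleton. They carry an actin-binding region of calponin homology domains at the N-terminus, a plakin domain, a long rod of spectrin repeats and a C-terminus that binds microtubules through a GAS2-related domain and end-binding proteins. MACF1 (ACF7) guides microtubules along actin towards focal adhesions, and DST (dystonin, BPAG1) is known for an epithelial form that anchors keratin filaments to hemidesmosomes and for separate neuronal and muscle forms. Alternative promoters and exons decide which of these modules a transcript encodes. Isoforms are named here as in the files, which give their lengths but not their exons or proteins, so an isoform is not assigned to a protein form and no sequence is shown.

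Depth was similar in the 6 libraries, with totals of 59822964 to 65774104 expected counts, which are estimated numbers of fragments per transcript. The induced gene, RBFOX1, was at 7.53 ± 0.79 TPM (transcript abundance scaled for length and library total; SD, n = 3) without doxycycline and at 188.3 ± 1.8 TPM with it (edgeR adjusted p = 7.61e-18, log2 fold change 4.55). Of the HEK293 markers KRT8, KRT18, VIM and PAX2 all 4 were above 1 TPM in both groups, with a summed level of 1070 to 1080 TPM in No Dox and 955 to 991 TPM in Dox. None of 6 keratinocyte markers (KRT5, KRT14, COL17A1, ITGB4, DSG3, TP63) reached 1 TPM, and their sum was 0.88 to 0.99 TPM in No Dox and 0.88 to 1.21 TPM in Dox. Of 6 muscle markers 1, MYH3, was above 1 TPM, with sums of 3.63 to 5 TPM and 3.04 to 3.16 TPM. Of 6 neuronal markers 5 were above 1 TPM in No Dox and 6 in Dox, with sums of 99.3 to 101 TPM and 82.9 to 84.6 TPM. The neuronal list was split. Mean TPM was lower in Dox for NEFL (65.5 to 52.5), TUBB3 (15.1 to 11.0) and SYP (14.5 to 8.68). It was higher for MAP2 (1.55 to 6.13), SNAP25 (2.99 to 4.59) and NEFM (0.55 to 1.15). The part of these marker differences in the results was not tested.

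To see whether the amount of spectraplakin RNA differed, the gene totals were compared first. MACF1 stood at 77.62, 78.66 and 78.92 TPM in the No Dox samples and at 81.15, 82.41 and 81.31 TPM in the Dox samples. The Dox samples were all higher, but by a factor of 1.04 only. In CPM (counts scaled to the library total) after TMM normalization, MACF1 was at 393.4, 394.3 and 400.6 in No Dox and at 442.3, 443.5 and 448.5 in Dox, and the fitted log2 fold change was 0.17 ± 0.02 (SE). The difference was larger in counts than in TPM, which divides by length. The mean transcript length weighted by TPM was 7384.9 ± 56 nt in No Dox and 8143.7 ± 119 nt in Dox for MACF1. For DST it was 7234.5 ± 74 nt and 7406.9 ± 126 nt. In a bulk sample, a difference in the number of cells that express a gene and a difference in RNA per cell cannot be told apart.

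DST, the less abundant of the pair on the TPM scale, was at 56.62, 57.34 and 57.27 TPM in No Dox and at 63.17, 60.88 and 64.49 TPM in Dox. Its groups did not overlap either, and the ratio of means was 1.10. In TMM-scaled CPM it was at 279.6, 281.8 and 285.5 in No Dox and at 306.8, 308.2 and 317.0 in Dox, and the fitted log2 fold change was 0.14 ± 0.02 (SE). Both gene totals therefore differed by a small amount that exceeded the spread of the replicates.

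**Figure D1:**
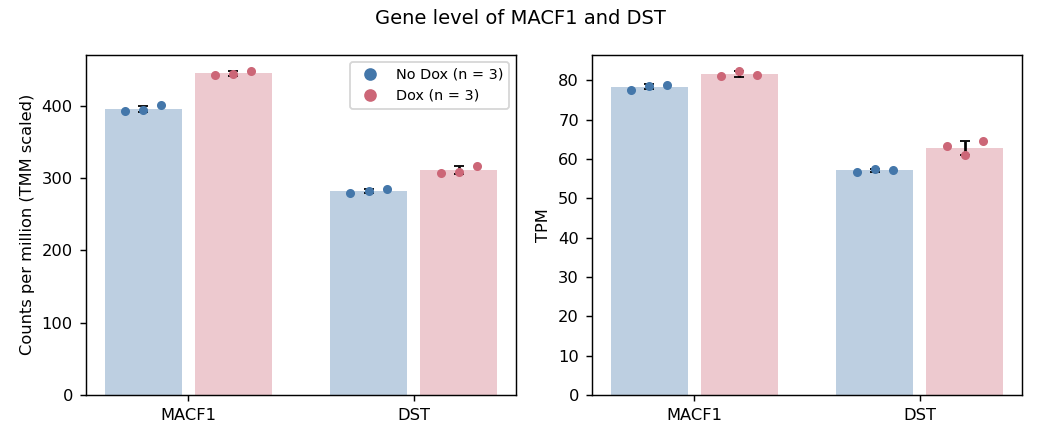
Level of MACF1 and DST for every sample as a point; bars start at 0 and give the mean of 3 samples, and error bars the SD, in TMM-scaled CPM on the left and in TPM on the right. The Dox samples are above the No Dox samples in every panel, by a ratio of means of 1.12 for MACF1 and 1.10 for DST in counts and of 1.04 and 1.10 in TPM.

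The isoform composition differed far more than the totals. Of the 34 MACF1 isoforms, 18 had a mean expected count of at least 10 over the 6 samples, 12 had fewer and 4 were at 0 in every sample. Of the 18, the TPM of the groups did not overlap in 12, of which 6 were higher and 6 lower in Dox. Of the 40 DST isoforms, 23 reached that count, 8 had fewer and 9 were at 0 throughout. Of the 23, 11 did not overlap, 5 higher and 6 lower in Dox. Among all 72012 isoforms with the same minimum count the groups did not overlap in 33.9% (17.8% higher and 16.1% lower in Dox), and because the genes were picked from this comparison nothing is read from the difference to that share.

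As a measure of the whole profile, the absolute changes in isoform percentage (IsoPct, the share of the TPM of a gene that RSEM assigns to an isoform) were summed and divided by 2. Between the group means, 23.3 percentage points of MACF1 and 21.1 points of DST were moved from some isoforms to others. Between single samples of different groups the MACF1 profiles were 22.3 to 25.7 points apart, against 3.51 to 6.36 points within No Dox and 3.83 to 5.46 points within Dox. For DST these distances were 19.3 to 25.1 points between groups, 7.62 to 9.82 points within No Dox and 5.35 to 6.47 points within Dox. Over 9832 genes with at least 5 TPM in both groups and 2 or more isoforms past the minimum count, the median shift was 5.82 points (quartiles 2.93 and 10.2). The median is given as background only, since both genes were picked with isoform values of this comparison known.

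The long transcripts of 10000 nt or more carried most of the MACF1 reads (74.0% of counts in No Dox) and a narrow majority of the DST reads (53.0%). MACF1-201 (ENST00000289893.8, 19141 nt) was at 2.65, 2.63 and 2.77 TPM in No Dox and at 12.80, 12.48 and 12.53 TPM in Dox. The groups were far apart and the samples within each were tight, with a ratio of means of 4.70. Its share of MACF1 was 3.42, 3.35 and 3.51% in No Dox and 15.77, 15.15 and 15.41% in Dox. Counted in fragments, which weigh long transcripts more, it took 9.01 ± 0.14% (SD, n = 3) of the MACF1 counts in No Dox and 36.8 ± 0.61% in Dox.

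MACF1-203 (ENST00000361689.6, 17538 nt), the leading MACF1 isoform by counts in untreated cells, went the opposite way. It was at 13.51, 13.69 and 14.11 TPM in No Dox and at 7.08, 6.94 and 6.87 TPM in Dox, a ratio of means of 0.51. Its isoform percentage was 17.40, 17.40 and 17.87% in No Dox and 8.72, 8.42 and 8.45% in Dox. Every Dox sample was below every No Dox sample, and its share of counts went from 42.3 ± 0.36% to 18.6 ± 0.38%, so that MACF1-201 was the leading isoform by counts in all 3 Dox samples.

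MACF1-205 (ENST00000372925.6, 14496 nt), the shortest of the long MACF1 isoforms, was also lower in Dox. Its isoform percentage was 10.92, 11.11 and 10.49% in No Dox and 6.90, 6.59 and 7.35% in Dox, and its share of counts was 21.5 ± 0.80% and 12.5 ± 0.51%. A further long isoform, MACF1-232 (24319 nt), chosen after its values were seen, had 2.09, 270.45 and 0.01 counts in No Dox and 2231.50, 2041.88 and 2423.37 counts in Dox. It was near 0 in 2 of the No Dox samples and at 2041.88 counts or more in every Dox sample.

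MACF1-232 also shows how far single values depend on the assignment of reads. MACF1-231 (24828 nt) had 302.50, 2.08 and 305.69 counts in No Dox, high where MACF1-232 was low and low where it was high. The sum of the pair was steady, at 304.6, 272.5 and 305.7 counts in No Dox, and was 2231.5, 2219.1 and 2744.9 counts in Dox. MACF1-231 had 0.0, 177.19 and 321.54 counts in Dox, no more on average than in No Dox. The higher level of the pair in Dox was thus assigned to MACF1-232. The split between the members of the pair was unstable in untreated cells, and the MACF1-231 count varied widely between Dox samples too.

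Among the long DST isoforms the longest was the one that was higher. DST-204 (ENST00000361203.7, 22431 nt) was at 2.02, 2.14 and 2.34 TPM in No Dox and at 7.63, 7.89 and 7.94 TPM in Dox, a ratio of means of 3.61. Its isoform percentage was 3.56, 3.74 and 4.08% in No Dox and 12.07, 12.96 and 12.32% in Dox. The groups were well separated, and its share of the DST counts went from 12.0 ± 0.71% to 38.3 ± 0.73%, which made it the leading DST isoform by counts in every Dox sample.

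DST-207 (ENST00000421834.6, 18030 nt) was lower, at 4.36, 5.07 and 4.68 TPM in No Dox and 1.79, 1.61 and 1.55 TPM in Dox. Its isoform percentage was 7.69, 8.84 and 8.17% in No Dox and 2.83, 2.64 and 2.41% in Dox, and its share of counts went from 20.8 ± 1.5% to 6.49 ± 0.56%. DST-202 (17756 nt), chosen after its values were seen, was at 2.19, 1.68 and 1.42 TPM in No Dox and at 0.15, 0.00 and 0.21 TPM in Dox. DST-201 (16742 nt) was at 2.71, 2.79 and 3.65 TPM and at 1.57, 1.88 and 2.70 TPM, so its highest Dox sample lay just under its lowest No Dox sample. The 3 shorter isoforms of this class that were detected were therefore all lower in Dox, DST-201 by the narrowest margin.

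The make-up of the long class was then computed on its own. Of the TPM of long MACF1 isoforms, MACF1-201 made up 10.6 ± 0.25% in No Dox and 45.9 ± 0.80% in Dox, MACF1-203 54.6 ± 0.76% and 25.3 ± 0.59%, and MACF1-205 33.7 ± 1.0% and 20.6 ± 0.72%. Of the TPM of long DST isoforms, DST-204 made up 18.5 ± 0.75% in No Dox and 67.3 ± 2.9% in Dox, and DST-207 40.3 ± 2.7% and 14.2 ± 1.8%. In both genes the groups did not overlap for any of these isoforms. The summed level of the long isoforms was 25.2 ± 0.28 TPM and 27.5 ± 0.41 TPM for MACF1, and 11.7 ± 0.41 TPM and 11.6 ± 0.67 TPM for DST. MACF1-204 and DST-206 were at 0 in all samples.

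**Figure D2:**
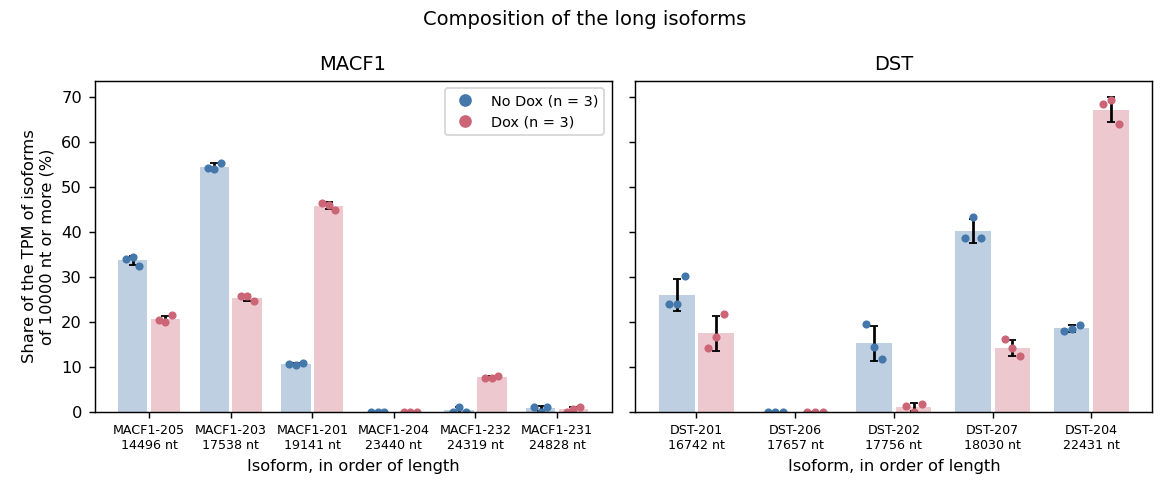
Share of each isoform of 10000 nt or more in the summed TPM of such isoforms of its gene, for every sample as a point, with bars for the mean of 3 samples and error bars for the SD. MACF1-201 goes from 10.6% to 45.9% and DST-204 from 18.5% to 67.3%, while MACF1-203 and DST-207 are lower in Dox.

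The share of the whole long class differed less than the shares of its leading members. Long isoforms held 74.0 ± 0.35% of the MACF1 counts in No Dox and 76.2 ± 0.52% in Dox, and 53.0 ± 1.1% and 52.7 ± 1.7% of the DST counts. The small MACF1 difference, 2.18 points, depended on the limit of 10000 nt and was 11.2 points with a limit of 15000 nt, which puts MACF1-205 outside the class. In contrast, the mean length of the transcripts to which MACF1 counts were assigned was 13629 ± 21 nt in No Dox and 15119 ± 80 nt in Dox. For DST it was 13068 ± 116 nt and 14332 ± 140 nt. Over all isoforms, reads were thus assigned to longer transcripts in Dox for both genes. In TMM-scaled CPM, isoforms of MACF1 that were higher in Dox gained 176 in all and those that were lower lost 127 (a change of -127), of which MACF1-201 accounted for a gain of 128 and MACF1-203 for a change of -84.8. For DST the gains came to 108 and the losses to a change of -80, with DST-204 at a gain of 85.3.

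**Figure D3:**
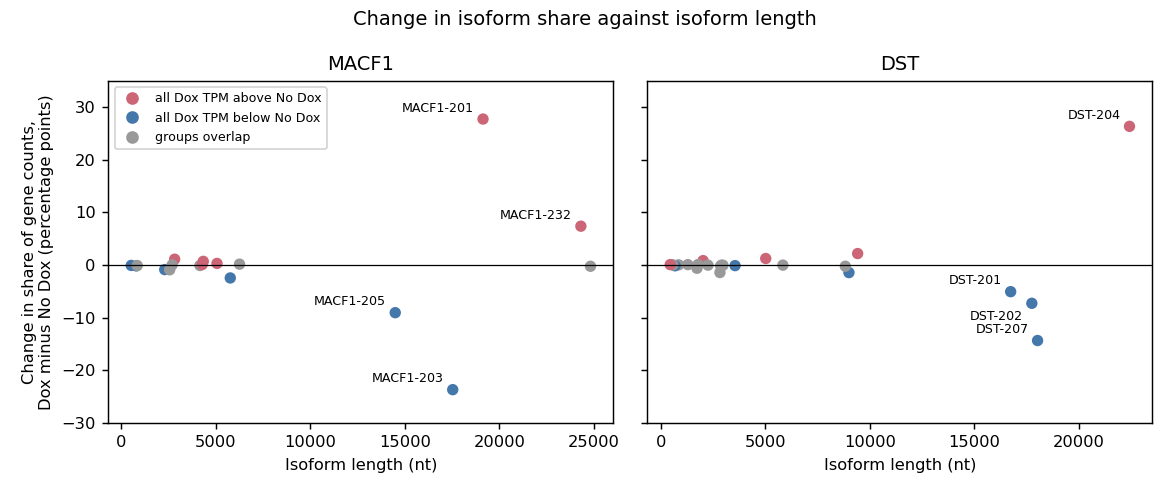
Change in the share of the counts of its gene (Dox minus No Dox, percentage points) against isoform length in nt, for the 18 MACF1 and 23 DST isoforms with a mean count of at least 10; color shows whether the TPM of all Dox samples lay above or below all No Dox samples. Changes of short isoforms lie close to 0, and MACF1-201 and DST-204 are at 27.8 and 26.4 points.

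Short and middle-sized isoforms weigh more in TPM than in counts. In isoform percentage some of them differed by more than some long isoforms did. MACF1-202 (2824 nt) was at 13.62, 11.53 and 13.43 TPM in No Dox and at 18.31, 18.01 and 16.31 TPM in Dox. Its isoform percentage went from 17.54, 14.66 and 17.02% to 22.56, 21.85 and 20.06%, a difference of 5.08 points without overlap, but of 1.11 points as a share of counts. MACF1-230 (5767 nt) was at 15.3 ± 0.37% and 13.4 ± 0.16% without overlap. MACF1-208 (2559 nt) at 10.1 ± 0.89% and 8.14 ± 0.88%, and MACF1-213 (842 nt) at 12.9 ± 0.39% and 13.2 ± 1.0%, overlapped between groups. The 7 MACF1 isoforms that reached 5% in a group held 86.5% of its TPM in No Dox and 87.1% in Dox.

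In DST the isoform with the highest percentage in every sample was short. DST-236 (2823 nt) was at 24.55, 25.36 and 23.20% in No Dox and at 20.75, 21.07 and 21.44% in Dox, lower in each Dox sample. Its TPM overlapped, ranging from 13.28 to 14.55 untreated and from 12.83 to 13.82 treated, so the lower percentage went with a higher total. DST-211 (2016 nt) was at 3.19, 2.12 and 3.30% in No Dox and at 5.91, 6.69 and 6.21% in Dox, a TPM ratio of 2.40. DST-238 (5015 nt) went from 9.52 ± 0.66% to 11.6 ± 0.22% without overlap. The percentages of DST-203 (9416 nt), at 16.6 ± 0.63% and 18.7 ± 1.2%, and of DST-232 (569 nt), at 5.74 ± 1.7% and 6.57 ± 0.78%, overlapped. In TPM, however, DST-203 was higher in every Dox sample, at 9.81, 9.33 and 9.28 in No Dox and 12.18, 11.92 and 11.16 in Dox. By counts DST-203 was a major isoform, with 21.7 ± 0.98% of the DST counts in No Dox and 23.9 ± 1.5% in Dox. DST-201 was at 5.33 ± 0.90% and 3.25 ± 0.87%, and the 8 DST isoforms that reached 5% in a group held 76.5% of its TPM in No Dox and 82.6% in Dox.

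**Figure D4:**
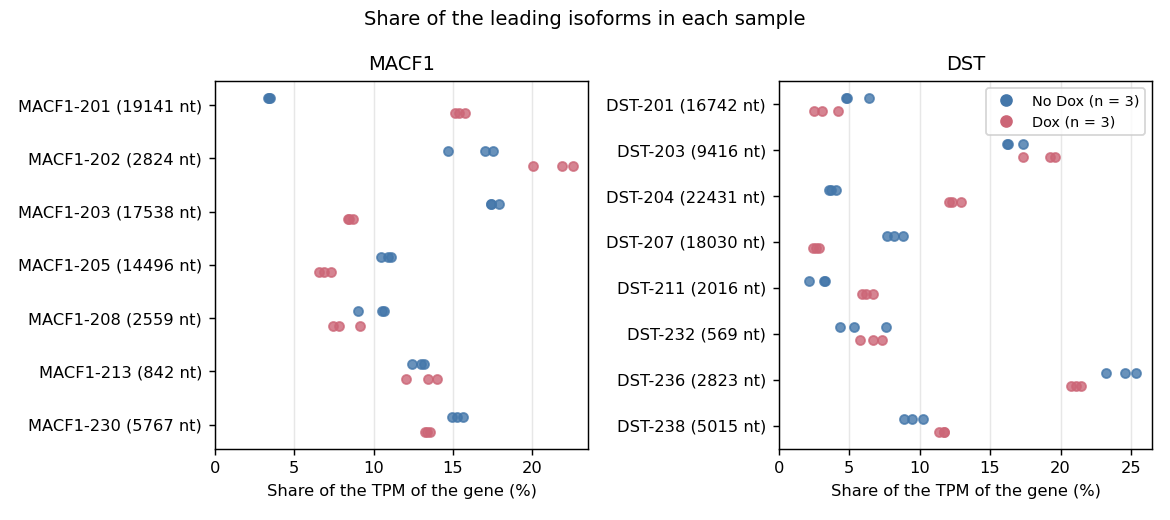
Isoform percentage (share of the TPM of the gene) of the 7 MACF1 and 8 DST isoforms that reached 5% in a group, in each No Dox and Dox sample (points). MACF1-201 and DST-204 lie at 3.35 to 3.51% and 3.56 to 4.08% when untreated, and at 15.15 to 15.77% and 12.07 to 12.96% after doxycycline, whereas MACF1-213 and DST-232 overlap.

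A few minor isoforms, chosen after their values were seen, were at 0 in every sample of a group or differed by a large factor. MACF1-207 (2299 nt) had 144.12, 300.67 and 193.63 counts in No Dox and 0 in each Dox sample. With 3 counts per group taken as the detection floor, it was at least 212-fold lower. DST-228 (671 nt) had 16.86, 27.26 and 29.38 counts in No Dox and 0 in Dox, at least 24.4-fold lower on that basis. MACF1-234 (4284 nt) was at 0 in No Dox and had 25.83, 36.80 and 27.99 counts in Dox, at least 30.4-fold higher. MACF1-229 (6257 nt) was also at 0 in No Dox but in 1 Dox sample as well, with 83.13 and 60.69 counts in the other two. MACF1-227 (4338 nt) was at 0.34, 0.36 and 0.27 TPM in No Dox and at 1.42, 1.58 and 1.42 TPM in Dox, a ratio of 4.56. MACF1-211 (792 nt) was at 1.80, 1.38 and 1.42 TPM in No Dox and at 0.22, 0.00 and 0.00 TPM in Dox, without overlap. DST-233 (442 nt) was at 0.00, 0.00 and 0.69 TPM and at 1.51, 1.39 and 2.03 TPM, higher in every Dox sample. DST-227 (1724 nt) was at 0.85, 2.39 and 2.38 TPM and at 0.87, 0.05 and 0.00 TPM, so its groups overlapped in TPM. Its isoform percentage was lower without overlap, at 1.51, 4.17 and 4.15% in No Dox and 1.38, 0.08 and 0.0% in Dox. The bounds cover counting error only and not the assignment of reads among isoforms. Over all isoforms past the minimum count, the named ones included, 7 of 18 in MACF1 and 11 of 23 in DST differed by under 1 point of isoform percentage between the group means.

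Likeness was measured by the root mean square difference of log2 CPM after centring each gene on its mean, which removes its level. The genes most like each member in profile across the 6 samples were then listed. For MACF1 these were TMEM33 (0.0055), CLSPN (0.0087) and LYRM2 (0.0097), and for DST they were KIFAP3 (0.0057), DEPDC1B (0.0065) and REEP5 (0.0073), among 11181 genes with a median of 0.12 for MACF1 and 0.11 for DST. The distance between MACF1 and DST was 0.017. Likeness by this measure fixes a fold change near that of the member, so nothing is read from their fold changes.

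Finally, other genes of the linker network were examined at the gene level, from 5 lists of relatives and known partners. Of 59 genes, 56 were tested, and 16 rose and 16 fell by edgeR (57.1%, against 51.4% of all 18264 genes tested, of which 24.9% rose and 26.5% fell). The median log2 fold change was -0.0016 in the lists and 0.0045 over all genes. With library size in place of TMM, 20 rose and 13 fell in the lists, and 5682 rose and 3753 fell among all genes. The changes were small, with 2 of the 32 (GAS2L2 and NEFM, both near 1 TPM or below) beyond 2-fold. Among all genes, 561 of the 9384 called were beyond 2-fold.

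Of the other plakins, DSP, which encodes desmoplakin of desmosomes, was lower in Dox, at 50.5 ± 1.1 and 46.7 ± 1.0 TPM (edgeR adjusted p = 9.87e-05, log2 fold change -0.15). PPL, encoding periplakin and named after its values were seen, rose by 0.63 on the log2 scale but stayed under 1 TPM (edgeR adjusted p = 0.00053). PLEC, encoding the linker plectin, at 8.50 ± 0.14 and 8.22 ± 0.47 TPM, and EPPK1, encoding epiplakin, at 6.28 ± 0.09 and 6.08 ± 0.60 TPM, did not pass (edgeR adjusted p = 0.16 and 0.18), and EVPL was too low to be tested. Without Dox replicate 1 this list had 4 calls in place of 2. Among genes that share the GAS2-related domain, GAS2L3 rose from 16.51 ± 0.31 to 19.99 ± 1.25 TPM (edgeR adjusted p = 5.96e-05), and GAS2L2, also named after its values were seen, rose at under 1 TPM (edgeR adjusted p = 0.0056). GAS2L1 and GAS2 did not pass, at edgeR adjusted p of 0.75 and 0.57.

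Of 18 genes for microtubule ends, 8 rose and 3 fell (61.1% called, beside 51.4% of all genes), and 12 rose and 3 fell with library size in place of TMM. CLIP1, a plus-end tracking linker, rose from 24.4 ± 1.0 to 34.6 ± 0.43 TPM, with a log2 fold change of 0.33 ± 0.03 in counts (edgeR adjusted p = 4.91e-08). CAMSAP2 and CAMSAP3, which bind minus ends, fell by 0.41 and 0.19 on the log2 scale (edgeR adjusted p = 7.62e-09 and 0.0061). The neuron navigator NAV1 fell by 0.37 (edgeR adjusted p = 2.79e-06). Their relatives CAMSAP1 and NAV3, named after their values were seen, rose by 0.10 and 0.52 (edgeR adjusted p = 0.0083 and 0.0072). NAV3 stayed under 1 TPM and did not pass by DESeq2 (adjusted p = 0.056). NAV2, named likewise, did not pass (edgeR adjusted p = 0.086). The microtubule polymerase gene CKAP5 and SLAIN1 did not pass, at 90.4 ± 1.4 and 94.2 ± 4.0 TPM and at 53.3 ± 1.3 and 53.3 ± 1.5 TPM (edgeR adjusted p = 0.65 and 0.29).

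Of 17 genes of hemidesmosomes and intermediate filaments, 15 were tested, 3 rose and 6 fell (60% called, beside 51.4% of all genes). The keratins of simple epithelia fell together, KRT18 from 154.5 ± 2.9 to 120.8 ± 0.96 TPM and KRT8 from 227.1 ± 2.5 to 187.6 ± 7.7 TPM (edgeR adjusted p = 4.49e-09 and 2.22e-07). CD151, a tetraspanin of integrin complexes, fell from 142.8 ± 2.8 to 124.1 ± 3.6 TPM (edgeR adjusted p = 1.37e-06), and the neurofilament gene NEFM rose from 0.55 ± 0.09 to 1.15 ± 0.05 TPM (edgeR adjusted p = 3.07e-05). NEFL, a far more abundant neurofilament gene named after its values were seen, fell from 65.5 ± 1.1 to 52.5 ± 0.62 TPM (edgeR adjusted p = 1.89e-06). ERBIN, whose product binds epithelial BPAG1, and INA, encoding internexin, did not pass (edgeR adjusted p = 0.84 and 0.78). KRT5 and KRT14, keratins of basal keratinocytes, were too low to be tested, and COL17A1, a hemidesmosomal collagen named after its values were seen, was at 0.19 ± 0.05 and 0.23 ± 0.08 TPM, with an edgeR adjusted p of 0.75. The hemidesmosomal integrin genes ITGA6 and ITGB4, also named after their values were seen, rose by 0.18 and 0.84 on the log2 scale in counts (edgeR adjusted p = 0.00058 and 0.00102). ITGB4 stayed under 1 TPM, and on that scale its groups overlapped, at 0.76, 0.55 and 0.77 in No Dox and 0.77, 0.91 and 0.66 in Dox. KRT8, KRT18 and VIM of this list are also in the HEK293 marker list, and NEFM and NEFL in the neuronal one.

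Of 15 binding and signalling partners, 2 rose and 6 fell (53.3% called, close to the 51.4% of all genes). With library size only 2 rose and 4 fell, without a filter 1 and 8, and with the replicate number as a block 2 and 8. The Wnt scaffold AXIN1 fell from 36.5 ± 0.21 to 31.8 ± 1.2 TPM (edgeR adjusted p = 3.37e-06), and GSK3B, a kinase that phosphorylates MACF1, rose from 19.8 ± 0.67 to 21.9 ± 0.65 TPM (edgeR adjusted p = 1.14e-05). MEMO1 and the formin gene DIAPH1 fell by 0.17 and 0.16 on the log2 scale (edgeR adjusted p = 0.0014 and 2.2e-05). GSK3A and the dynactin gene DCTN1 did not pass (edgeR adjusted p = 0.86 and 0.072). Without No Dox replicate 2 this list had 5 calls in place of 8.

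**Figure D5:**
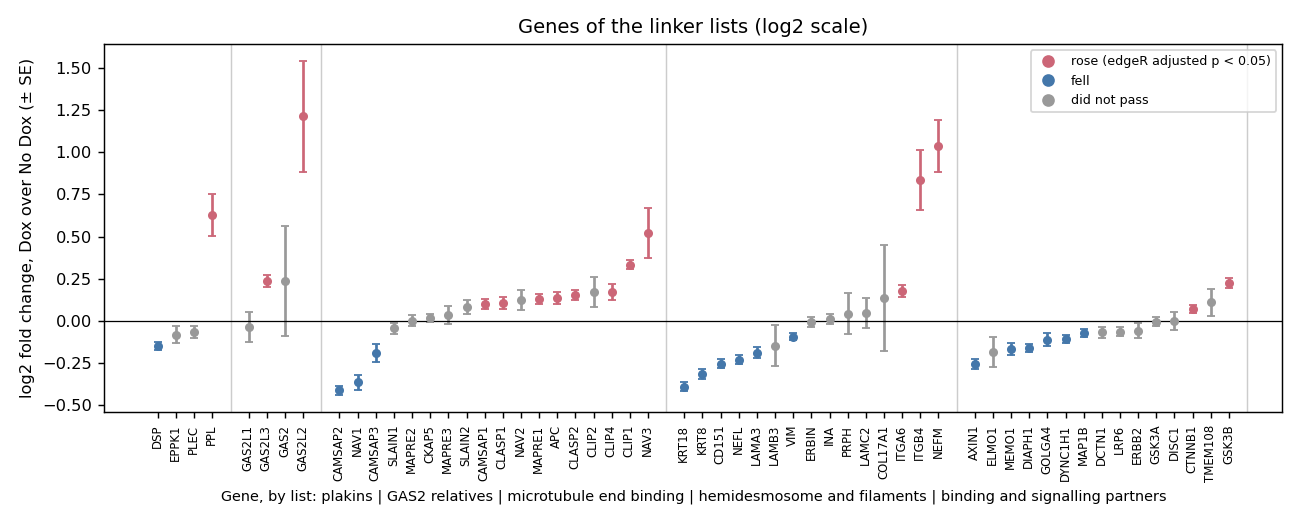
Log2 fold change (Dox over No Dox) with SE for the 56 tested genes of the 5 linker lists, in order within each list; color marks genes that rose, fell or did not pass at an edgeR adjusted p of 0.05. Of the 56, 16 rose and 16 fell, and 2 of these lie beyond 1 on the log2 scale.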

How the data were processed

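Poly(A) RNA libraries of 77-5 cells were made by the authors with a stranded kit. Per the labels, cutadapt, STAR and RSEM were used with GRCh38; tool versions and the strand setting of RSEM are not stated in those sources, so reads of antisense genes may be included. The deposited expected counts are unnormalized estimates of fragments per isoform, the deposited TPM values are scaled for length and library total, and the deposited isoform percent is the share of TPM within a gene. The deposited FPKM values were not used. Reads from shared exons are apportioned by a model, so similar isoforms can trade reads between samples. The precision of a value is limited by that assignment and by 3 samples a group.

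Expected counts were summed per gene, rounded and tested with edgeR 4.0.16 (glmQLFit and glmQLFTest, TMM, filterByExpr; R 4.3.3), with Benjamini-Hochberg adjustment over all genes and a two-sided threshold of 0.05. SE was the absolute log2 fold change divided by the square root of F. The test was checked on simulated data. DESeq2 1.42.0, other scalings and filters, a replicate block and left-out samples were alternatives. For MACF1 and DST no test was made. Isoforms of at least 5% in a group were named. The 4 largest changes per gene, taken only among isoforms whose percentages did not overlap between groups, were given in every sample. List genes were named by fold change above 1 TPM (up to 4 called) and by level (up to 2 not called) for each list. The members and lists were chosen with earlier results of these data known. The reference given was of mouse, so no human coordinates or sequences are shown.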

Additional observations from a re-analysis of the deposited data

How the results depend on the processing

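The direction of the MACF1 and DST gene differences and of 14 of the 15 named isoform differences held under the alternatives run. With library size only, log2 fold changes were 0.21 for MACF1 and 0.19 for DST; without a filter MACF1 was at 0.15, and by mean TPM at 0.058. Leaving out a sample gave 0.16 to 0.17 for MACF1 and 0.12 to 0.15 for DST. As shares of counts, the profile shifts were 37.6 points for MACF1 and 31.0 for DST, since long isoforms then weigh more. MACF1-213 changed sign as a share of counts (-0.092 points) and without Dox replicate 2 (-0.14 points; 0.84 at most with a sample left out). Changes in the share of long, middle and short isoforms of MACF1 were 1.499, 0.53 (reversed from -1.25) and -2.03 points in TPM, and 11.2, -11.0 and -0.20 points with limits of 5000 and 15000 nt, which move MACF1-205 to the middle class. For DST the long and short classes changed by -1.95 and -0.71 points in TPM, and the long class by -1.22 to 0.47 points with a sample left out, positive without No Dox replicate 3 (0.19) or Dox replicate 1 (0.47).

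With a minimum log2 fold change of 1, 561 of all 18264 genes tested were called, and 2 of the 56 tested in the lists. By list there were 0 plakins, 1 GAS2 relative, 0 for microtubule ends, 1 for hemidesmosomes and filaments and 0 partners. Plakin calls were 4 in place of 2 without a filter and 2 to 4 with a sample left out (4 without Dox replicate 1), and partner calls 5 to 9. Of the 32 list calls, 5 (CAMSAP1, and CLASP1, CTNNB1, GOLGA4 and MAP1B, which are named for this loss) were lost in at least 1 fit without a sample. Replicate numbers were not taken to pair the samples (correlations of deviations 0.025, -0.022 and 0.17 over 13796 genes, and not every sample was closest to its own number). With the replicate block 9805 genes were called against 9384, and 34 list genes against 32. Each member had 17273 or more counts in every sample; the division of reads among isoforms and the 3 samples a group both limit the values. The cause of these differences was not tested.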

Other observations

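BEND6, which encodes a BEN domain protein and whose mouse counterpart is the direct neighbor of Dst in the RefSeq annotation of GRCm38.p6, was looked at after its values were seen. It rose from 2.20 ± 0.25 to 6.80 ± 0.70 TPM (SD, n = 3), a log2 fold change of 1.62 ± 0.09 (SE, edgeR adjusted p = 3.9e-10), against 0.14 ± 0.02 for DST. Its position in the human genome was not examined here.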
